A study of Mus musculus with 6 samples.

Results

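Annexins are cytosolic proteins that bind acidic phospholipids, above all phosphatidylserine, when calcium rises. They share a conserved membrane-binding core and differ in their amino-terminal tails, several of which dock small calcium-binding proteins of the S100 family. Members take part in membrane repair, vesicle traffic, plasminogen activation at the cell surface and the resolution of inflammation, and in fat cells Anxa2 has been studied in fatty acid uptake. The genes described here are the 10 annexin genes Anxa1 to Anxa9 and Anxa11. Members were chosen by gene symbol, and each of the 10 matched 1 Ensembl ID among the 21769 gene IDs present in all 6 libraries. The family itself was picked from the CIH and control values of these same libraries, so the changes given below are a description of the members and support nothing by themselves. The remaining mouse annexins stand outside the set. Anxa13 was listed at 0 in all 6 libraries, and Anxa10 at 0.0170 FPKM in control 1 and at 0 in the other 5.

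The study compared messenger RNA of 3T3-L1 cells, a wild-type mouse fibroblast line that turns into adipocytes under insulin, in 3 control libraries and 3 libraries given chronic intermittent hypoxia (CIH, repeated spells of low oxygen). Both groups had the same adipogenic insulin protocol, which ended with 0.1 µM insulin up to day 8 in medium holding 10% serum. The labels give neither the oxygen levels nor the cycle times, and they name no separate cultures, so the spread between libraries may be technical. Values are FPKM, fragments divided by the length of the gene and by the size of the library, which makes levels of different genes comparable within a library.

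Replicates 1 and 2 of both groups were deposited with 1 value per gene, and replicate 3 of both groups with several entries per gene, which were summed. These 2 kinds of table differ in form, and no source used here says whether they were processed apart. CIH 1 and CIH 2 are therefore compared with control 1 and control 2, and CIH 3 with control 3 alone. The gene tables rest on about 25700000, 28000000, 26200000 and 27400000 fragments in control 1, control 2, CIH 1 and CIH 2, recovered from the steps of low values. Depth of the replicate 3 tables is unknown. The 8 adipocyte markers (Adipoq, Plin1, Cidec, Fabp4, Cfd, Pparg, Lep and Slc2a4), of which Lep was nearly absent at no more than 0.217 FPKM, summed to 6400 and 7050 FPKM in control 1 and 2, 6052 and 5292 in CIH 1 and 2, and 25625 in control 3. In CIH 3 they summed to 476, while 7 fibroblast and preadipocyte markers summed to 1723 there against 99.2 in control 3. The 6 leukocyte markers summed to at most 4.95 FPKM and the 4 endothelial markers to at most 0.719 in any library, with Adgre1 at 0 in all 6.

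The promoters of Anxa1, Anxa2 and Anxa8 are shown because these 3 members had the largest changes in replicates 1 and 2 on the log2(FPKM + 1) scale, which understates the change of the low member Anxa3. Each runs from 250 bases before the RefSeq transcript start to 50 after it, 5′ to 3′ on the strand of the gene (build GRCm38.p6). They lie at chr19:20390622-20390921 (minus strand), chr9:69453433-69453732 (plus strand) and chr14:34085729-34086028 (plus strand). Capitals mark matches on either strand to ACGTG or GCGTG, the core of sites bound by hypoxia-inducible factors, and to TGAGTCA, a site of AP-1 factors.
Anxa1: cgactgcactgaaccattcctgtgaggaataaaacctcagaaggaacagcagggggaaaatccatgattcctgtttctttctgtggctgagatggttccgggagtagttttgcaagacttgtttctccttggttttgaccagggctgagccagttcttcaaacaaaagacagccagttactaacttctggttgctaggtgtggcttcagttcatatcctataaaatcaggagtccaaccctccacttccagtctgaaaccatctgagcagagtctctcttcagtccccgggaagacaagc
Anxa2: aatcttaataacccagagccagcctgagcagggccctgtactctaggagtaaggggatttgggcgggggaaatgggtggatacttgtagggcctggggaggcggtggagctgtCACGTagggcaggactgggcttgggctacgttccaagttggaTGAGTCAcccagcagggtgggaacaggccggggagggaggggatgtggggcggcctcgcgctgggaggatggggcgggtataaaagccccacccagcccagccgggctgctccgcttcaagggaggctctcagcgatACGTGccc
Anxa8: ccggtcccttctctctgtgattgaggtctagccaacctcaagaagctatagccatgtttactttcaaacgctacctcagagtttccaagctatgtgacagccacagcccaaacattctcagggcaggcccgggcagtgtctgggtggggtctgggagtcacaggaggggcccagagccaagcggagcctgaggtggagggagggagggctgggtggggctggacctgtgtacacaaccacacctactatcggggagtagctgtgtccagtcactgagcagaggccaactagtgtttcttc

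The Anxa2 window held ACGTG on the minus strand from base 114 and on the plus strand from base 293, and TGAGTCA from base 156. None of the 3 motifs was found in the windows of Anxa1 and Anxa8. The RefSeq promoter set used here held windows for 8 of the 10 members (11 windows, as Anxa4, Anxa7 and Anxa9 have more than 1). It held none for Anxa3 and Anxa6. ACGTG or GCGTG occurred in 7 of the 11, and in 43.8% of all 32851 promoter windows. TGAGTCA occurred in the Anxa2 window alone among the 11, and in 5.20% of all windows. ACGTG is also part of the E-box CACGTG, which the second Anxa7 window holds. A match is a string of letters and no evidence of binding.

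In the controls a few genes led the family. In control 1 and 2 the order of mean FPKM was Anxa6 (187 ± 9.53), Anxa5 (138 ± 6.52), Anxa8 (132 ± 6.03), Anxa2 (93.8 ± 0.291), Anxa1 (68.3 ± 7.56), Anxa4 (28.1 ± 1.07), Anxa7 (19.2 ± 0.0387), Anxa11 (3.55 ± 0.203), Anxa9 (1.90 ± 0.341) and Anxa3 (0.351 ± 0.0442), each a mean with its SD over 2 libraries. Anxa5 and Anxa8 overlapped in this order, and the other neighbours did not. In CIH 1 and 2 Anxa2 led at 246 ± 25.8 FPKM, followed by Anxa6 at 207 ± 3.56 (SD, n = 2), and Anxa8 had moved from the third to the seventh place. Anxa9 and Anxa3, the lowest members, overlapped in CIH 1 and 2. The 10 genes summed to 673 FPKM in both control 1 and control 2, and to 827 and 756 in CIH 1 and CIH 2. Anxa8 made up 19.0% and 20.3% of that sum in the controls and 1.82% and 1.84% in CIH 1 and 2. Anxa2 went the other way, from 14.0% and 13.9% to 31.9% and 30.1%. In replicate 3 the sum was 818 in control and 1203 in CIH, Anxa2 led in both libraries with 31.5% and 33.3%, and Anxa8 took 5.85% and 0.780%. Genes of the mitochondrial genome held 43.7% of all FPKM in control 3 and 22.4% in CIH 3, against 11.2% to 16.3% in the other libraries.

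**Figure D1:**
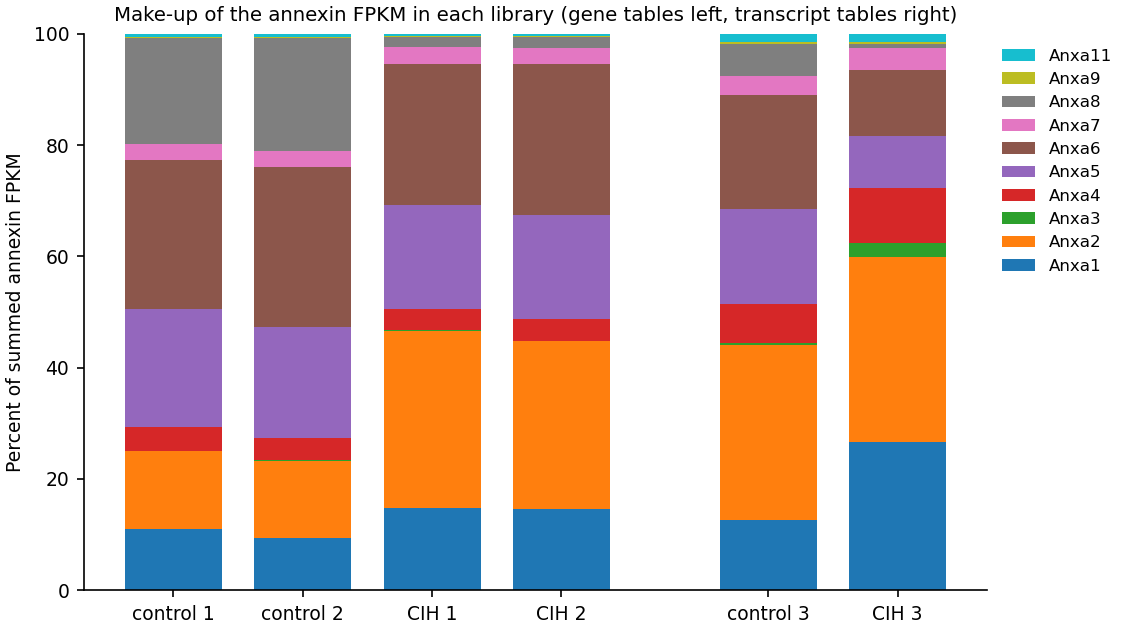
Share of each annexin gene in the summed FPKM of the 10 genes, in percent, by library. Anxa8 takes 19.0% and 20.3% in control 1 and 2 and under 2% in CIH 1 and 2, where Anxa2 takes 31.9% and 30.1%.

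In replicates 1 and 2, limma called 4 of the 10 annexin genes higher in CIH (Anxa1, Anxa2, Anxa3 and Anxa7) and 1 lower (Anxa8), at an adjusted p under 0.05 over 10976 genes. Mean FPKM of Anxa8 was 132 ± 6.03 in the controls and 14.5 ± 0.841 in CIH, and that of Anxa2 was 93.8 ± 0.291 and 246 ± 25.8 (SD, n = 2). Of all genes tested, 18.2% were called higher and 20.9% lower (39.1% in all), and since the family was picked with this contrast in view, nothing is read from the counts of its members. The median change of the 10 members was 0.12 on the log2(FPKM + 1) scale, beside −0.01 over all genes tested. With libraries scaled to equal totals, 1368 genes were called higher and 3149 lower, in place of 1995 and 2297, and 3 annexins were called higher and 2 lower. Without CIH 1 or CIH 2 the calls over all genes fell to 1865 and 2316, from 4292. All 10 members passed the low-value filter, which asked for 1 FPKM or more on average across the 6 libraries. Anxa3 passed only through the replicate 3 tables, since its mean over the gene tables was 0.746.

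Anxa8 encodes an annexin known from epithelia and late endosomes, and it was the only member called lower. It lies on chromosome 14 from 34085981 to 34100571 on the plus strand (GRCm38). Control 1 held 128 FPKM and control 2 held 137, while CIH 1 held 15.1 and CIH 2 held 13.9. These values rest on 6192 and 7184 fragments in the controls and 742 and 717 in CIH. Both CIH libraries lay far below both controls, and the libraries of each group differed little. The log2 change was −3.10 (SE 0.0768), and 0.100% of all genes tested had a change as low. In the replicate 3 pair Anxa8 was 47.9 in control 3 and 9.39 in CIH 3, a log2 difference of −2.23, with 3.08% of genes as low. Its 2 entries there were 47.2 and 0.666 in control 3 and 9.08 and 0.312 in CIH 3, so that 1 entry carried nearly the whole value.

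Of 6 markers of epithelial cells, where Anxa8 is best known, Krt8, Krt14 and Krt18 moved with it in the gene tables. The 6 markers summed to 9.97 and 10.9 FPKM in control 1 and 2 and to 0.720 and 0.411 in CIH 1 and 2. Epcam and Krt5, which define epithelia and keratinocytes, were at 0 in all 6 libraries, and Cdh1 was at 0.00850 ± 0.0120 FPKM in the controls (SD, n = 2). Keratin genes made up the sum. Krt8 was 6.12 ± 0.377 in the controls and 0.134 ± 0.0585 in CIH 1 and 2, and Krt18 was 2.96 ± 0.941 and 0.196 ± 0.0617 (SD, n = 2). Both passed the low-value filter only through the controls. The sum was 1.73 in control 3 and 0.375 in CIH 3, where Krt8 was not lower (0.264 and 0.330). Of the adipocyte markers, Cfd, Pparg and Slc2a4 were also called lower in replicates 1 and 2 (log2 changes of −3.47, −0.91 and −1.88), and the other 4 tested were not called. The part of either kind of cell in the Anxa8 values was not tested, and in bulk RNA fewer cells of a type and less RNA per cell cannot be told apart.

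Over the 6 libraries, after centring each gene within its kind of table, the 5 tested genes closest to Anxa8 by Euclidean distance on the log2(FPKM + 1) scale were Selenbp1 (distance 0.395), 2610528A11Rik (0.487), Prl2c5 (0.49997), Cyp2e1 (0.510) and Apoc3 (0.586). Selenbp1, a selenium-binding protein gene, was 14.8 and 15.6 FPKM in control 1 and 2, 0.521 and 0.706 in CIH 1 and 2, 8.91 in control 3 and 1.71 in CIH 3. All 5 were lower in each CIH library than in any control of the same kind of table, which follows from picking them as nearest to Anxa8. Selenbp1, 2610528A11Rik and Cyp2e1 averaged under 1 FPKM in CIH and passed the low-value filter only through the controls. The likeness is over 6 libraries that share a group structure, and it is a description only.

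Anxa2 encodes the annexin that joins S100a10 in a complex on the inner face of the plasma membrane, and on the log2(FPKM + 1) scale it had the highest upward change of the family in replicates 1 and 2. With a pseudocount of 0.1 FPKM the low member Anxa3 (1.45) passed Anxa2 (1.38). The gene spans 69453620 to 69491795 on the plus strand of chromosome 9. It was at 94.0 and 93.6 FPKM in control 1 and 2 and at 264 and 227 in CIH 1 and 2. The groups did not overlap, and the controls were almost equal. The log2 change was 1.37 (SE 0.0992), and 99.5% of genes tested had a change as low or lower. In the replicate 3 pair Anxa2 was 257 in control 3 and 400.3 in CIH 3, a difference of 0.64, and the second of its 4 entries held 241 and 369 of these. Anxa2 shares 98 exon bases with the antisense gene Gm16144, and no source used here says whether counting used the strand.

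Anxa1 encodes a glucocorticoid-responsive protein that acts through formyl peptide receptors to dampen inflammation (chromosome 19, 20373428 to 20390944, minus strand). It was at 73.6 and 62.9 FPKM in control 1 and 2 and at 122 and 111 in CIH 1 and 2. CIH lay above control in each library, with a log2 change of 0.76 (SE 0.106). CIH 3 was at 321 and control 3 at 103, a difference of 1.63. Anxa1 is the only member with a single entry in the replicate 3 tables.

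Anxa3, a less studied annexin on chromosome 5 (96793339 to 96845966, plus strand), had the lowest mean FPKM of the members in both groups of the gene tables. It was listed at 0.320 and 0.382 FPKM in control 1 and 2 and at 1.29 and 0.990 in CIH 1 and 2. These values stand for 30 and 39 fragments in the controls, with 95% Poisson intervals of 20.2 to 42.8 and 27.7 to 53.3, and for 123 and 99 in CIH, with intervals of 102 to 147 and 80.5 to 121. The intervals cover counting error only, and those of the groups did not meet. On the log2(FPKM + 1) scale the change was 0.66 (SE 0.0805), which understates a fold for so low a gene: the ratio of mean FPKM was 3.25. In replicate 3 Anxa3 was at 3.14 in control and 28.9 in CIH, the largest difference of the family there (2.85). Of its 5 entries, the second was 2.17 in control 3 and 20.3 in CIH 3, the first 0.527 and 4.93 and the last 0.444 and 3.65, while the other 2 were at 0 in both. Anxa3 shares 112 exon bases with Gm42603 on the same strand.

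Anxa7, or synexin, is a membrane fusion protein that binds sorcin (chromosome 14, 20455260 to 20480133, minus strand). It was at 19.2 and 19.3 FPKM in control 1 and 2 and at 25.4 and 22.7 in CIH 1 and 2. The groups did not overlap, but the log2 change of 0.30 (SE 0.0807) kept its call under 4 of 13 alternatives only, and the call was lost when any 1 of the 4 libraries was left out. Control 3 was at 28.3 and CIH 3 at 47.4 (0.73).

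**Figure D2:**
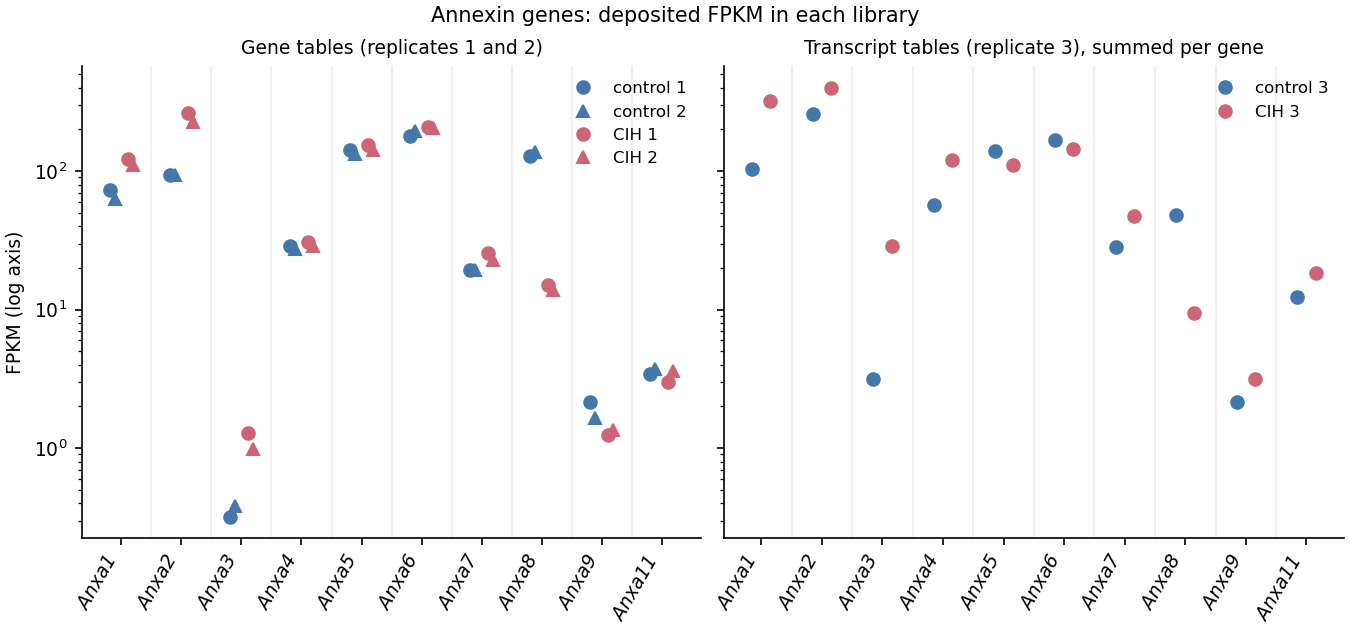
Deposited FPKM of the 10 annexin genes on a log axis, 1 point per library, with control in blue and CIH in red; the gene tables are on the left and the replicate 3 tables, summed per gene, on the right. Anxa8 drops from 128 and 137 to 15.1 and 13.9 on the left and from 47.9 to 9.39 on the right, while Anxa1, Anxa2, Anxa3 and Anxa7 are higher in every CIH library than in the controls of the same panel.

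The other 5 members were not called in replicates 1 and 2. Anxa6, an annexin with a duplicated core found at the plasma membrane and endosomes, was at 180 and 194 FPKM in control 1 and 2 and at 210 and 205 in CIH 1 and 2 (log2 change 0.15, SE 0.0843). The groups did not overlap, but the gap between them was narrower than the distance between the controls. Anxa5, which binds exposed phosphatidylserine and is used to stain dying cells, was at 143 and 134 in the controls and at 155 and 142 in CIH, with overlap (0.10, SE 0.0874). In replicate 3 both were lower in CIH, Anxa6 at 167 in control and 143 in CIH and Anxa5 at 140 and 111. Of the 2 Anxa6 entries, the first was 79.4 and 78.8 and the second 87.4 and 64.7. Anxa6 lies on chromosome 11 (54979108 to 55033445) and Anxa5 on chromosome 3 (36448923 to 36475894), both on the minus strand. Scaling to equal totals turned both of these differences upward, to 0.41 and 0.29 from −0.22 and −0.33.

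Anxa4, a membrane-binding annexin best known from secretory epithelia, was at 28.8 and 27.3 FPKM in control 1 and 2 and at 30.7 and 28.7 in CIH 1 and 2. The groups overlapped, and the change was 0.08 (SE 0.0722). In replicate 3 it was at 56.7 in control and 120 in CIH, a log2 difference of 1.07. 1 of its 6 entries held most of this, at 43.3 and 94.7. Anxa4 lies on chromosome 6 (86736840 to 86793584, minus strand) and shares 75 exon bases with Gm44036 on the other strand.

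Anxa11, which tethers RNA granules to lysosomes, was at 3.41 and 3.70 in the controls and at 3.00 and 3.59 in CIH 1 and 2, with overlap. It was at 12.3 in control 3 and 18.3 in CIH 3. Anxa11 (chromosome 14, 25842156 to 25886804, plus strand) shares 113 exon bases with the antisense gene Anxa11os. Anxa9, which lacks working calcium sites, was at 2.14 and 1.65 in the controls and at 1.24 and 1.35 in CIH 1 and 2, from 114, 96, 67 and 77 fragments. The CIH values lay below the controls (−0.33, SE 0.0987). The 95% Poisson interval of control 2 (77.8 to 117 fragments) overlapped those of CIH 1 (51.9 to 85.1) and CIH 2 (60.8 to 96.2). That of control 1 (94.0 to 137) overlapped that of CIH 2 only, and narrowly. These intervals are of raw fragments and are not scaled for depth, which was lower in control 1 (25700000) than in CIH 2 (27400000). The overlap of control 1 with CIH 2 can therefore not be read as an overlap in FPKM. In replicate 3 Anxa9 was at 2.14 in control and 3.13 in CIH. Anxa9 (chromosome 3, 95296096 to 95307176, minus strand) shares 71 exon bases with Mindy1 and 94 with 6330562C20Rik.

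**Figure D3:**
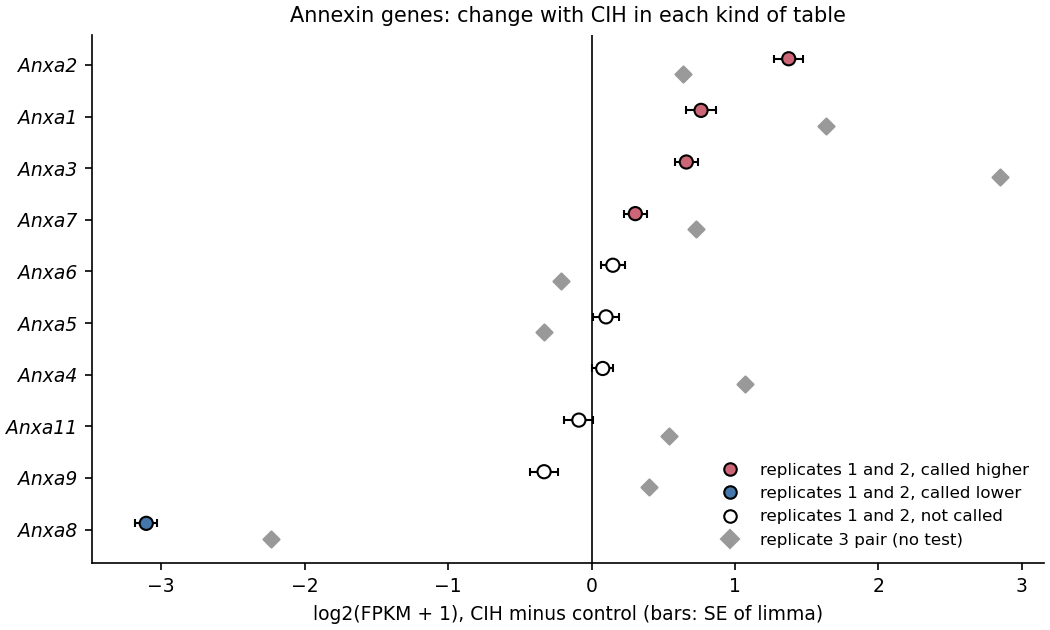
Difference between CIH and control on the log2(FPKM + 1) scale for each annexin gene: circles are replicates 1 and 2 with the SE of limma as bars (filled where called), grey diamonds the replicate 3 pair, which has no test. Anxa8 lies at −3.10 and −2.23, Anxa3 at 0.66 and 2.85, and Anxa4, Anxa5, Anxa6, Anxa9 and Anxa11 have open circles.

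In the replicate 3 pair, 3 of the 10 members were at least 2-fold higher in CIH 3 on the log2(FPKM + 1) scale (Anxa1, Anxa3 and Anxa4) and 1 at least 2-fold lower (Anxa8). Scaled by the median of ratios, Anxa4 was at 0.78 and only Anxa1 and Anxa3 were at least 2-fold higher. Over all genes tested, 21.8% were at least 2-fold higher and 11.8% at least 2-fold lower. The median difference of the members was 0.59, beside 0.26 over all genes. The direction was the same as in replicates 1 and 2 for 6 members, namely Anxa1, Anxa2, Anxa3, Anxa4, Anxa7 and Anxa8. With 1 library per group there is no replicate check. In the same pair, all 7 tested adipocyte markers were at least 2-fold lower in CIH 3, with a median log2 difference of −5.60, and all 6 tested fibroblast and preadipocyte markers at least 2-fold higher, with a median of 3.19. In replicates 1 and 2 those medians were −0.12 and 0.61. There the 6 fibroblast and preadipocyte markers split, with 4 called higher and 2 lower, beside 39.1% of all genes called. The part of these shifts in the annexin values was not tested.

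Partners that bind annexins were described from 5 lists of related genes in replicates 1 and 2, beside the 39.1% of all genes called. The lists were chosen with earlier results of these data known, so the adjusted p-values of their genes are a description only. The first held 8 binding partners, of which 4 were called higher, 1 lower and 3 not called, with a median of 0.59. S100a10, the partner of Anxa2, was 109 ± 3.03 FPKM in the controls and 263 ± 33.4 in CIH 1 and 2 (SD, n = 2), a log2 change of 1.26 (SE 0.112, limma adjusted p = 0.00245). S100a6, which binds several annexins, was 148 ± 26.9 and 400.4 ± 40.1 (log2 change 1.44, limma adjusted p = 0.00392). S100a11, the partner of Anxa1, was 225 ± 7.81 and 393 ± 23.9 (0.80, limma adjusted p = 0.0050). S100a4 was 0.153 ± 0.216 and 2.68 ± 0.000406, against 254 and 748 in control 3 and CIH 3, so the kinds of table differ widely for it. In replicate 3, S100a10 was 314 and 411, S100a6 669 and 849, and S100a11 714 and 484 in control and CIH.

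Of the calcium-binding partners Pdcd6, which binds Anxa7 and Anxa11, and Sri (sorcin), neither was called, at log2 changes of 0.18 and 0.18 (SE 0.0898 and 0.0758, limma adjusted p = 0.171 and 0.117). Ahnak, a large scaffold bound by the Anxa2 complex and named after its values were seen, was the 1 partner called lower (37.2 ± 3.35 and 25.5 ± 1.35 FPKM, SD, n = 2). It was higher in CIH 3 (531) than in control 3 (141).

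The cell surface plasminogen system, which the Anxa2 complex helps to activate, had Plaur, Plat and Serpine2 called higher among the genes reported here, and Plgrkt, a plasminogen receptor, was not called. Plat passed the low-value filter only through CIH 3 (mean 0.709 FPKM over the other 5 libraries), and Plaur averaged 0.660 FPKM over the 3 controls, so their number is not read as support. Plaur, the urokinase receptor, was 0.777 ± 0.0562 FPKM in the controls and 1.81 ± 0.211 in CIH 1 and 2, and 0.426 and 3.22 in replicate 3. Plat, tissue plasminogen activator, was 0.267 ± 0.0601 and 0.636 ± 0.0588, and 1.74 and 19.3 in replicate 3. Plau, urokinase, was under 1 FPKM in all libraries and was not tested, and plasminogen itself (Plg) was at 0 in CIH 1, CIH 2 and both replicate 3 libraries. Serpine2, a protease inhibitor named after its values were seen, had a log2 change of 0.50 (from 0.689 ± 0.0409 to 1.39 ± 0.0929 FPKM, SD, n = 2).

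Around Anxa1, the receptors Fpr1, Fpr2 and Fpr3 were at or near 0, with Fpr1 at most 0.119 FPKM in a replicate 3 library, and none was tested. Of the 8 tested genes of that list, 2 were called higher and 4 lower. Pla2g4a, the cytosolic phospholipase that Anxa1 restrains, was higher (log2 change 0.66, SE 0.0620, named after its values were seen). Fkbp5 was 102 ± 3.29 FPKM in the controls and 37.9 ± 2.17 in CIH 1 and 2 (−1.40, SE 0.0756), and Sgk1 was 8.80 ± 0.341 and 19.99 ± 1.52 (1.10, SE 0.0843). In replicate 3 Fkbp5 was 138 in control and 86.5 in CIH, and Sgk1 was also lower in CIH, at 41.4 and 29.6. Nr3c1, the glucocorticoid receptor, Per1 and Zbtb16 were the others called lower, and Dusp1 and Tsc22d3 were not called (log2 changes of −0.20 and −0.18). These 5 are named after their values were seen. In replicate 3 Nr3c1 went the other way, at 46.9 in control and 57.0 in CIH, while Per1 (40.8 and 8.74) and Zbtb16 (43.1 and 10.7) were again lower.

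Of the 14 membrane repair genes tested, 2 were called higher, 2 lower and 10 not called (median −0.01), beside 39.1% of all genes called. The ferlins Myof (0.78) and Dysf (−0.99), both calcium sensors of repair, went opposite ways, and the calpain subunits Capns1 (0.40) and Capn1 (−0.61) did so too. In the replicate 3 pair both calpain genes had the other sign (−0.34 and 0.83). All 4 genes are named after their values were seen. Of the 8 tested genes reported here that move phosphatidylserine across the membrane, Plscr1 was called higher (0.51) and the flippase Atp11b lower (−0.56), also named after their values were seen, and 6 were not called. Ano6, the calcium-activated scramblase, was at 13.7 ± 0.687 and 12.3 ± 0.219 FPKM (SD, n = 2) and was not called.

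**Figure D4:**
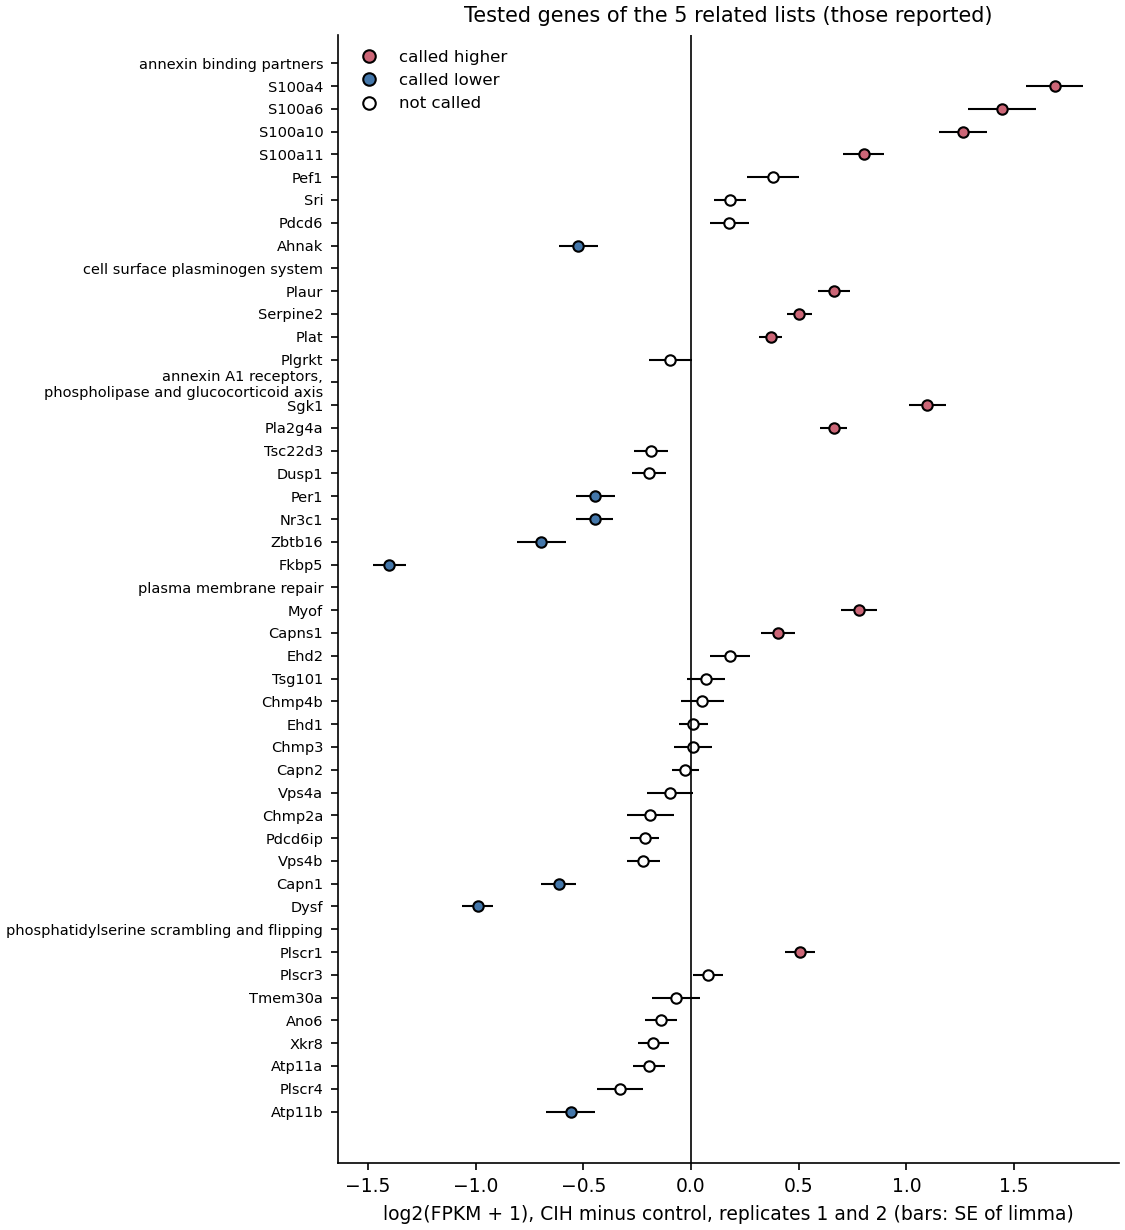
Difference between CIH and control in replicates 1 and 2 on the log2(FPKM + 1) scale, with the SE of limma as bars, for the tested genes of the 5 related lists that are reported here (red called higher, blue called lower, open not called). S100a4, S100a6, S100a10 and S100a11 lie to the right of 0 among the binding partners, and most membrane repair genes lie near 0.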

How the data were processed

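The authors deposited FPKM values for 6 libraries, a unit taken here from the values because the headers hold sample names only. GRCm38, featureCounts 1.5.0-p3 and DESeq 1.8.3 are listed in the submitters' processing notes without a role, and no source used here names an aligner. Libraries are directional, per the labels' protocols. Symbols and coordinates came from GENCODE mouse release M21 (GRCm38), promoter sequences from RefSeq (GRCm38.p6).

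Entries of one gene ID were summed in the replicate 3 tables. In the gene tables, FPKM times exon length lay within 0.05 of a whole fragment for 98.4% to 98.6% of genes under 50 fragments. Values entered as log2(FPKM + 1). The 10976 genes present in all 6 files with a mean of at least 1 FPKM were fitted with limma 3.58.1 (R 4.3.3, group only, empirical Bayes with trend, Benjamini-Hochberg adjustment, 2-sided, called at an adjusted p under 0.05). The fit was tested on simulated data. Tables were made with Python 3.11.15.

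The members, the lists and the tests were chosen with earlier results of these data known. Named are all members, 10 fixed partners, called list genes changed at least 2-fold, the 5 genes nearest Anxa8 and, outside this rule and after their values were seen, other genes of the lists. Some genes of the plasminogen and phosphatidylserine lists are not reported here, and the counts leave them out. Alternatives covered the pseudocount, the filter, scaling, a replicate block, all 6 libraries and leaving out each library.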

Additional observations from a re-analysis of the deposited data

Results flagged for a closer look

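Anxa6 and Anxa9 went opposite ways in the 2 kinds of table with every library of each kind on 1 side. Anxa6 was higher in both CIH libraries of replicates 1 and 2 and lower in CIH 3 than in control 3 (log2 difference −0.22). Its replicate 3 difference depended on scaling, at 0.41 with equal totals and −0.05 with equal totals outside the mitochondrial genome. Anxa9 was lower in both CIH libraries of replicates 1 and 2 and higher in CIH 3 (0.40). Neither was called in replicates 1 and 2, and the difference between the kinds of table was not tested.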

How the results depend on the processing

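Anxa1, Anxa2, Anxa3, Anxa6, Anxa7, Anxa8 and Anxa9 kept their direction in replicates 1 and 2 under every alternative chosen at the outset that gave a value (13 each, 12 for Anxa3), while Anxa4 kept it in 12 and Anxa5 and Anxa11 in 10 of 13. Most of these alternatives could not turn a direction. The filters and the replicate block leave the log2 change of a member as it is. Where the groups did not overlap, as in the members that always kept their direction, neither the pseudocount nor leaving out 1 library can turn it. The call of Anxa8 held in 12 of 13 (log2 change from −3.23 to −2.81), that of Anxa2 in 11 of 13 (1.13 to 1.48), that of Anxa1 in 10 of 13, that of Anxa3 in 9 of 12 and that of Anxa7 in 4 of 13. Without a filter on low values, 21769 genes were tested, 1396 were called, and 1 annexin was called higher. All 6 libraries with the group alone gave 0 calls by limma, with 490 genes at an unadjusted p under 0.05, and thus 0 annexins higher and 0 lower. A term for the kind of table gave 63 calls, with 0 annexins higher and Anxa8 lower. Causes were not tested. Scaling to equal totals called 2 annexins lower, and scaled so, 6 members of the replicate 3 pair were at least 2-fold higher in place of 3. Scaling by the median of ratios gave 2, Anxa4 dropping out. Scaling to equal totals moved the median of all genes to −0.11 in replicates 1 and 2 and to 0.83 in replicate 3. Leaving out 1 library gave between 1865 and 3682 calls over all genes, 3 annexins higher each time, and 1 or 2 lower (2 without control 2, where Anxa9 was called). With a replicate block 3332 genes were called, 3 annexins higher and 1 lower, Anxa7 losing its call. Same-numbered libraries of replicates 1 and 2 deviated oppositely (correlation −0.18 across genes), and a crossed block, added after seeing the data, gave 4510 calls, with 4 annexins higher and 2 lower. Over all 6 libraries the correlations were 0.529, 0.587 and 0.581. There each library was centred on its group mean over both kinds of table. The difference between the kinds thus enters both groups alike, so these values cannot show whether same-numbered libraries are paired.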
